A study of Mus musculus with 4 samples.

Results

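The tumour suppressor gene Trp53 and 9 of its direct target genes were followed in blood progenitors of a mouse model of myelodysplasia with and without Hif1a. The 10 genes were chosen by symbol as Trp53 and targets of its protein p53 in cell cycle arrest, feedback and cell death. All 10 were found among the 28987 genes of the expression table. RNA sequencing was done on c-Kit-positive (CD117-selected) bone marrow cells of C57BL/6 mice. The Hif1a-null group (2 libraries) carried the genotype MllPTD/WT, with Runx1 and Hif-1alpha both floxed on each allele, and Mx1-Cre. The Hif1a-intact group (2 libraries) carried MllPTD/WT, Runx1 floxed on each allele and Mx1-Cre, with no floxed Hif-1alpha. Both groups thus shared the partial tandem duplication of Mll, which keeps 1 normal copy, and both were labelled Runx1-null. Mx1-Cre is a recombinase under an interferon-inducible promoter, active in blood cells and in other tissues. No age or inducing agent is stated in the sources used here. Nor is it stated that replicate libraries came from different animals, so p-values measure the spread between these libraries, which may be technical.

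p53 is a transcription factor that is held low by the ubiquitin ligase Mdm2 and is stabilised after DNA damage, oncogene activity or other stress. It binds paired copies of a short palindromic sequence and switches on genes that stop the cell cycle, repair DNA, trigger apoptosis, or restrain p53 itself. In blood stem and progenitor cells this pathway is known for its part in quiescence and in the response to genotoxic stress. The Hif1a protein is the subunit of HIF-1 that oxygen controls.

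Promoter sequences are shown for the genes on which the comparison turns, namely Cdkn1a, which differed between the groups, and Mdm2 and Ccng1, which did not pass the test. Each window runs 5′ to 3′ on the gene's strand over 300 bases, from 250 before to 50 after an annotated start, and was taken from RefSeq (GRCm38.p6). Capitals mark the p53 consensus decamer, or in the upstream Cdkn1a window the complete 20-base site made of 2 adjoining decamers. A separate consensus decamer in that window, GGACTAGCTT, is left in lower case.
Cdkn1a, upstream start (GRCm38.p6, chr17:29090729-29091028, plus strand): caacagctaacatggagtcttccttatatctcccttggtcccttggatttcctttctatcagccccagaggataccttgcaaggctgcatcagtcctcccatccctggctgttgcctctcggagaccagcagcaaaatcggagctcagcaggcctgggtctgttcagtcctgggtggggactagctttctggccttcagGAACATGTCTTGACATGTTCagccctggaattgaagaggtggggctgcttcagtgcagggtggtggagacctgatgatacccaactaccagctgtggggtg
Cdkn1a, downstream start (GRCm38.p6, chr17:29093519-29093818, plus strand): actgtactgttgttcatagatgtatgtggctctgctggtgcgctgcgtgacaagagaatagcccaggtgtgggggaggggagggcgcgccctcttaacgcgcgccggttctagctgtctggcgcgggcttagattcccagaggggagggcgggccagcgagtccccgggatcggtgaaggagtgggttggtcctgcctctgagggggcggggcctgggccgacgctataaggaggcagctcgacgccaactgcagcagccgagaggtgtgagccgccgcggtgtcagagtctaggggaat
Mdm2 (GRCm38.p6, chr10:117710709-117711008, minus strand): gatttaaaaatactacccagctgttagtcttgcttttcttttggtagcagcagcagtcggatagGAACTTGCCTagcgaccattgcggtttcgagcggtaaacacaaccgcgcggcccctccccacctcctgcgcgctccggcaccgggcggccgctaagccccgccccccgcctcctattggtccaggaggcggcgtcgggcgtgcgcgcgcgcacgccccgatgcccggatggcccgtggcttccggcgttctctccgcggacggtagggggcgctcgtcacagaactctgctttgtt
Ccng1 (GRCm38.p6, chr11:40755237-40755536, minus strand): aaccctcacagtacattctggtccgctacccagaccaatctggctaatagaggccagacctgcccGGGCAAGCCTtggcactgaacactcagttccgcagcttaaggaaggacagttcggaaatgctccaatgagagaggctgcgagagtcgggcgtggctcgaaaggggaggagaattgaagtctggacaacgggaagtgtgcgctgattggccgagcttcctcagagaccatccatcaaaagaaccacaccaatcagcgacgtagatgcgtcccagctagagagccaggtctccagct
Windows were found for 7 of the 10 genes, with 2 starts each for Cdkn1a and Aen, 9 windows in all. Perp, Trp53inp1 and Zmat3 had no entry. A p53 consensus decamer, which reads the same on both strands, lay in 6 of the 9 windows, among them both overlapping Aen windows, which share it. Of all 32817 RefSeq promoter windows of that length, 8.36% held one. The complete site, searched as 2 adjoining decamers with intact cores and up to 1 mismatch, lay in the upstream Cdkn1a window alone of the 9, as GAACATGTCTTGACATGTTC with 1 mismatch. It lay in 18 of all windows (0.0548%). Its first base was 51 bases before that start. The upstream start lies 2790 bases before the downstream one, and a gene-level value does not separate their transcripts. The short HIF motifs ACGTG and GCGTG, on either strand, lay in 6 of the 9 windows, against 43.8% of all windows. They were in the windows of Trp53, Mdm2, Aen and Ccng1 and in the downstream Cdkn1a window, and not in the upstream Cdkn1a window, Phlda3 or Sesn2. ACGTG overlaps itself on the opposite strand where it forms CACGTG. A match is a description of the letters and not evidence of binding, and no match says only that the letters are not in that window.

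Values were in TPM, a relative abundance scaled for transcript length that holds no read numbers. Sequencing depth is therefore unknown. The columns summed to between 955562 and 963135 TPM. Kit read 121 and 102 TPM in Hif1a-null libraries and 128 and 126 TPM in Hif1a-intact libraries. The 14 granulocyte markers summed to between 103108 and 106401 TPM in Hif1a-null libraries and between 56262 and 63030 TPM in Hif1a-intact libraries, so RNA of maturing granulocytes was abundant in both. Hif1a itself read 98.8 and 113 TPM in Hif1a-null libraries, against 100.3 and 75.2 TPM in Hif1a-intact libraries (limma, adjusted p = 0.479). Because such a value also covers exons that are not floxed, the deletion is not checked by it, and every direction rests on the labels. Runx1 read 48.4 and 46.7 TPM in Hif1a-null libraries, against 73.6 and 76.6 TPM in Hif1a-intact libraries (limma, adjusted p = 0.0636), so Hif1a status and the Runx1 level cannot be told apart here. The Runx1 deletion is likewise not checked by gene-level values and rests on the labels.

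The cell cycle inhibitor gene Cdkn1a and the death effector gene Perp were lower in Hif1a-null progenitors by several fold, and none of the other 7 tested genes passed the test. Trp53 itself, its inhibitor Mdm2 and the abundant target Ccng1 had group means at most 1.15 times apart. The question asked of these genes was whether the fall of Cdkn1a and Perp, known beforehand from these data, was shared. Of 9 genes that reached 1 TPM in at least 2 libraries, 2 fell (Cdkn1a and Perp) and 0 rose at a limma adjusted p under 0.05. Of all 11909 genes tested, 7.27% were called, 2.02% lower and 5.25% higher. Since those 2 genes were named for their fall, their calls are given as a description. Among the other 7 tested genes the limma adjusted p ran from 0.121 to 0.817, and 1 of them, Sesn2, had an unadjusted p under 0.05. Not passing does not show that a gene was unchanged. Without either Hif1a-null library 0 of the 9 were called, and without Hif1a-intact replicate 2 there were 3, Sesn2 being the third.

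**Figure D1:**
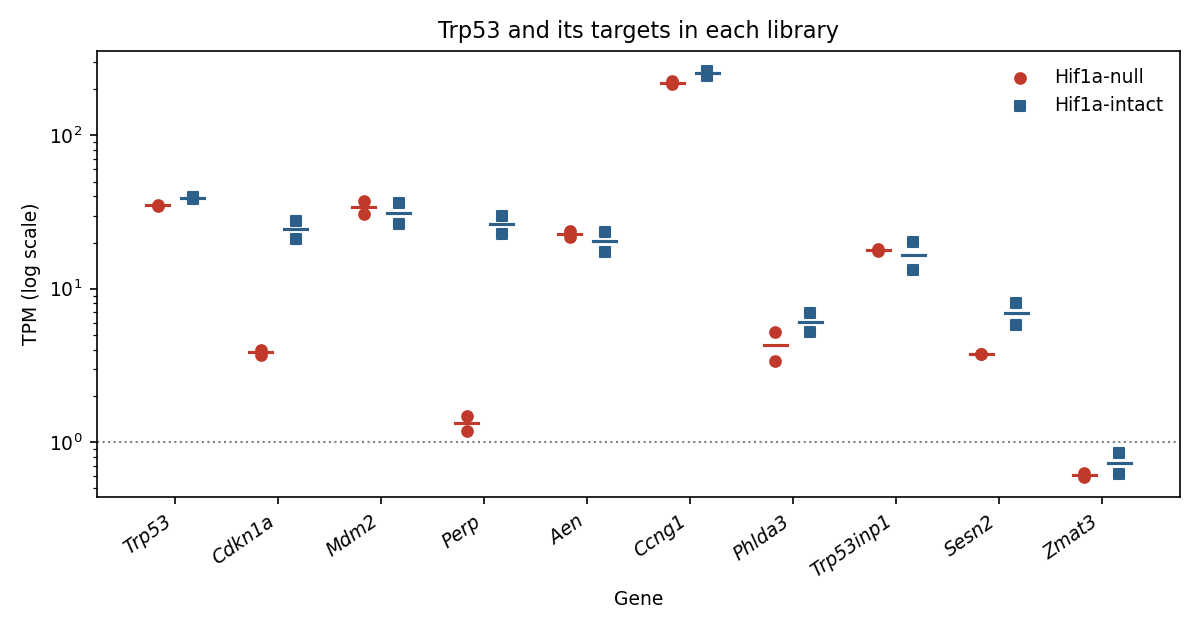
TPM on a log axis of Trp53 and its targets in each library, with Hif1a-null libraries as circles, Hif1a-intact libraries as squares, short lines at the group means (n = 2 each) and a dotted line at 1 TPM. Cdkn1a and Perp stand far apart between the groups, Sesn2 less so, and the other genes lie close together.

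Trp53, which encodes p53, lies on GRCm38 chromosome 11 (69580359 to 69591873, plus strand). It read 35.4 and 34.8 TPM in Hif1a-null libraries, against 39.5 and 38.6 TPM in Hif1a-intact libraries. Both Hif1a-null values were below both Hif1a-intact values, by a small margin. On the log2(TPM + 1) scale, used for all fold changes here, Hif1a-null minus Hif1a-intact was -0.15 (standard error 0.12), with a 95% interval from -0.48 to 0.18 (limma, adjusted p = 0.542). TPM measures transcript, and p53 is controlled largely as a protein.

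Among the genes of arrest, Cdkn1a encodes p21, the inhibitor of cyclin-dependent kinases through which p53 halts the cell cycle (chromosome 17, 29090976 to 29100727, plus strand). It read 3.70 and 3.99 TPM in Hif1a-null libraries, against 21.1 and 27.6 TPM in Hif1a-intact libraries. The groups did not overlap, and the Hif1a-null mean was 0.158 times the Hif1a-intact mean (3.85 ± 0.205 TPM in Hif1a-null libraries and 24.4 ± 4.58 TPM in Hif1a-intact libraries; SD, n = 2 each). The fitted log2 fold change was -2.38 (standard error 0.18), with a 95% interval from -2.86 to -1.89 (limma, adjusted p = 0.00916). Only 30 of the 11909 tested genes, itself included, had a log2 fold change that low. Without Hif1a-null replicate 1 the log2 fold change was -2.33 (limma, adjusted p = 0.119), and without Hif1a-null replicate 2 it was -2.42 (limma, adjusted p = 0.140). In those fits the remaining Hif1a-null library was assumed to vary like the Hif1a-intact pair. Fits without a Hif1a-intact library, given below for other genes, likewise took a gene's own spread from the Hif1a-null pair alone. Cdkn1a overlapped an unnamed transcript model on the opposite strand over 273 exonic bases, and no source used here says whether the authors' counting used strand.

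Perp, a membrane protein of the PMP-22 family, is a p53 target in apoptosis and also a part of desmosomes in epithelia (chromosome 10, 18845020 to 18857073, plus strand). It read 1.18 and 1.47 TPM in Hif1a-null libraries, against 22.8 and 29.9 TPM in Hif1a-intact libraries. The groups did not overlap, and the Hif1a-null mean was 0.0502 times the Hif1a-intact mean (1.32 ± 0.209 TPM in Hif1a-null libraries and 26.4 ± 5.03 TPM in Hif1a-intact libraries; SD, n = 2 each). The fitted log2 fold change was -3.55 (standard error 0.19), with a 95% interval from -4.06 to -3.03 (limma, adjusted p = 0.00559). It ranked 8 of the 11909 tested genes from the lowest log2 fold change. That fold depends on the pseudocount, being -2.30 with 5 TPM added and -4.21 with 0.1 TPM added. Without Hif1a-null replicate 1 it was -3.46 (limma, adjusted p = 0.0633), and without Hif1a-null replicate 2 it was -3.64 (limma, adjusted p = 0.0796). Of 12 desmosome and epithelial genes, 4 were tested and 1 was called, the keratin gene Krt18, lower at 1.72 and 1.63 TPM in Hif1a-null libraries against 3.95 and 3.51 TPM in Hif1a-intact libraries (limma, adjusted p = 0.0422). Of all tested genes, 2.02% were called lower. That list summed to between 17.7 and 20.8 TPM in Hif1a-null libraries and between 20.7 and 21.1 TPM in Hif1a-intact libraries.

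The feedback genes did not pass. Mdm2, which marks p53 for degradation and is itself a p53 target (chromosome 10, 117688875 to 117710758, minus strand), read 37.2 and 30.8 TPM in Hif1a-null libraries, against 36.1 and 26.5 TPM in Hif1a-intact libraries. The groups overlapped, with a log2 fold change of 0.13 and a 95% interval from -0.45 to 0.71 (limma, adjusted p = 0.784). Ccng1 encodes cyclin G1, which feeds back on p53 through Mdm2 (chromosome 11, 40748552 to 40755311, minus strand). It was the most abundant of the 10 at 215 and 226 TPM in Hif1a-null libraries, against 246 and 263 TPM in Hif1a-intact libraries. The groups did not overlap, but the log2 fold change of -0.21, with a 95% interval from -0.56 to 0.14, did not pass (limma, adjusted p = 0.431). Both intervals exclude a change of the size seen in Cdkn1a.

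Among the genes of death and survival signalling, Aen, a p53-induced nuclease (chromosome 7, 78895854 to 78911209, plus strand), read 23.7 and 21.6 TPM in Hif1a-null libraries, against 17.4 and 23.6 TPM in Hif1a-intact libraries. The groups overlapped, and its 95% interval of log2 fold change ran from -0.38 to 0.67 (limma, adjusted p = 0.708). Trp53inp1, a stress-induced nuclear protein that promotes p53-dependent death (chromosome 4, 11156431 to 11174379, plus strand), read 17.5 and 18.1 TPM in Hif1a-null libraries, against 20.2 and 13.2 TPM in Hif1a-intact libraries. Both Hif1a-null values lay between the Hif1a-intact ones, with a 95% interval from -0.52 to 0.76 (limma, adjusted p = 0.817). Phlda3, a lipid-binding inhibitor of AKT (chromosome 1, 135766119 to 135769136, plus strand), read 3.37 and 5.23 TPM in Hif1a-null libraries, against 6.93 and 5.21 TPM in Hif1a-intact libraries. One Hif1a-null library thus matched the lower Hif1a-intact one. Its log2 fold change of -0.43 had the widest 95% interval of the 9, from -1.10 to 0.24 (limma, adjusted p = 0.392).

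Sesn2 came nearest to Cdkn1a and Perp. It encodes sestrin 2, a stress-induced restraint on the growth kinase complex mTORC1 (chromosome 4, 132492032 to 132510501, minus strand). It read 3.76 and 3.75 TPM in Hif1a-null libraries, against 8.05 and 5.78 TPM in Hif1a-intact libraries. The groups did not overlap, and the Hif1a-null mean was 0.542 times the Hif1a-intact mean. The fitted log2 fold change of -0.72 (standard error 0.19, 95% interval from -1.23 to -0.21) did not pass the threshold over all genes (limma, adjusted p = 0.121). It passed in 1 of its 17 alternatives, the fit without Hif1a-intact replicate 2, where the log2 fold change was -0.93. That fit took the gene's own spread from the Hif1a-null pair alone. The SD of that pair was 0.0081 TPM, against 1.60 TPM in Hif1a-intact libraries (n = 2 each). Zmat3, an RNA-binding zinc finger protein (chromosome 3, 32334792 to 32366014, minus strand), stayed under 1 TPM in every library and was not tested. It read 0.624 and 0.589 TPM in Hif1a-null libraries, against 0.841 and 0.615 TPM in Hif1a-intact libraries.

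**Figure D2:**
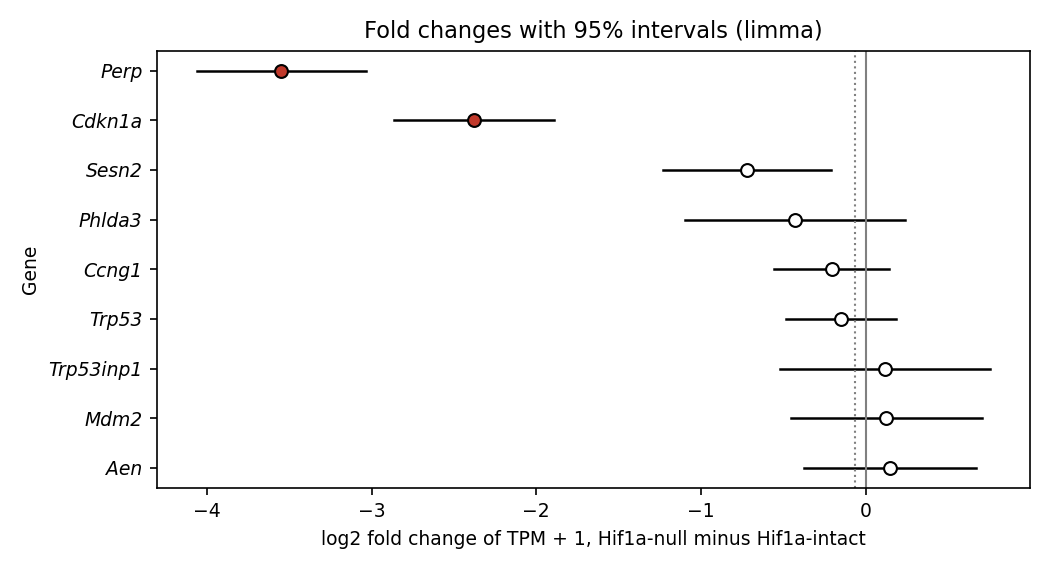
Log2 fold change of TPM + 1 (Hif1a-null minus Hif1a-intact, n = 2 each) for the 9 tested genes, with 95% limma intervals. Filled points passed the adjusted threshold of 0.05, the solid line marks 0 and the dotted line the median of all tested genes (-0.06). The intervals of Cdkn1a and Perp lie below those of the other 7 genes.

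The order of the log2 fold changes was Perp, Cdkn1a, Sesn2, Phlda3, Ccng1, Trp53, Trp53inp1, Mdm2 and Aen, from lowest to highest. The intervals of Perp and Cdkn1a overlapped neither each other nor those of the other 7 genes, whereas neighbours from Sesn2 onward overlapped. Differences between genes were not themselves tested. In 5 of the 9 tested genes the groups did not overlap, each time with Hif1a-null lower (Trp53, Cdkn1a, Perp, Ccng1 and Sesn2), against 32.3% of all tested genes. In 0 of the 9 did both Hif1a-null values lie above both Hif1a-intact values, against 22.7% of all tested genes. With direction set aside, the groups did not overlap in 5 of the 9, against 55% of all tested genes. The median log2 fold change was -0.21 over the 9 and -0.06 over all tested genes. The count of 5 and the median over the 9 include Cdkn1a and Perp, which were named for their fall, so both are a description. Among the other 7 genes, only Trp53, Ccng1 and Sesn2 had groups that did not overlap. A single gene compared between 2 and 2 libraries by an exact permutation test cannot go below p = 0.333, so calls rest on the spread that limma shares across genes.

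Ratios within a library do not depend on how the libraries were scaled. For every 100 TPM of Mdm2 there were 9.95 and 13.0 TPM of Cdkn1a in Hif1a-null libraries, against 58.5 and 104 TPM in Hif1a-intact libraries. Perp gave 3.16 and 4.79 TPM for every 100 TPM of Mdm2 in Hif1a-null libraries, against 63.2 and 113 TPM in Hif1a-intact libraries. Sesn2 gave 10.1 and 12.2 TPM in Hif1a-null libraries, against 22.3 and 21.8 TPM in Hif1a-intact libraries. For these 3 genes the ratio to Mdm2 was lower in both Hif1a-null libraries. Ccng1 gave 579 and 734 TPM in Hif1a-null libraries, against 681 and 995 TPM in Hif1a-intact libraries, and here the groups overlapped. Set against Trp53, Cdkn1a read 10.5 and 11.5 TPM for every 100 TPM in Hif1a-null libraries, against 53.4 and 71.6 TPM in Hif1a-intact libraries.

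**Figure D3:**
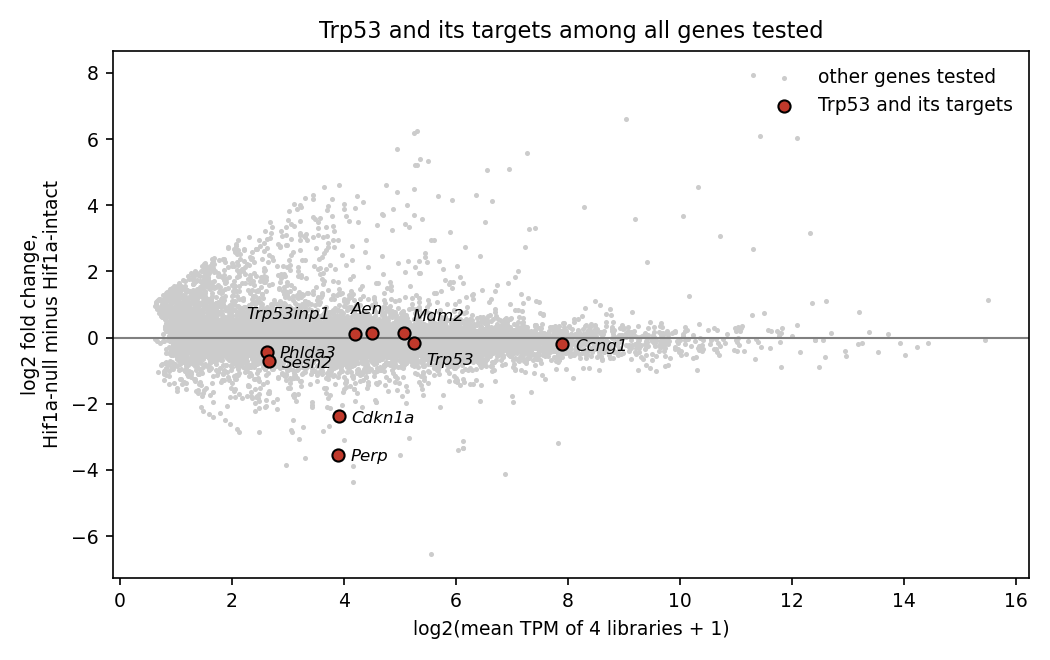
Log2 fold change of TPM + 1 (Hif1a-null minus Hif1a-intact) against the log2 mean TPM + 1 of the 4 libraries, for all 11909 tested genes in grey and the 9 tested p53 genes as labelled points. Cdkn1a (-2.38) and Perp (-3.55) lie at the lower edge of the cloud, and the other 7 lie within it.

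Likeness in pattern was ranked among tested protein-coding genes with a symbol, with names of the Gm and Rik type left out. It was measured by Euclidean distance over the 4 libraries of log2(TPM + 1), centred on each gene's mean. Nearest to Cdkn1a were Galnt3, Nol4, Itga9, Wdr90 and Egln3, at distances of 0.300 to 0.518. Galnt3 read 1.31 and 1.26 TPM in Hif1a-null libraries, against 7.92 and 9.72 TPM in Hif1a-intact libraries. Egln3, an oxygen-sensing prolyl hydroxylase, read 12.9 and 13.3 TPM in Hif1a-null libraries, against 55.6 and 52.7 TPM in Hif1a-intact libraries. Nearest to Perp were Oosp1, Tdrd9, Ankrd63, Stag3 and Cpa3, at distances of 0.360 to 0.961. Oosp1 read 4.28 and 3.93 TPM in Hif1a-null libraries, against 59.2 and 57.3 TPM in Hif1a-intact libraries. Neither of the 2 sets held another of the 10 p53 genes. That was fixed by the fold changes given above, so it adds nothing on whether the fall was shared.

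The wider pathway was described from 56 further p53 targets, of which 55 were in the table and 49 were tested. Of these, 2 rose (Steap3 and Polh), 1 fell (Ddit4) and 46 did not pass. These counts stand against 5.25% of all tested genes called higher and 2.02% called lower. Of the 49, 30 had a positive and 19 a negative log2 fold change, with a median of 0.18. The groups did not overlap with Hif1a-null higher in 23 of the 49, against 22.7% of all tested genes. With Hif1a-null lower they did not overlap in 16, against 32.3%. In 4 of the 49, Plk2, Crip2, Gls2 and Sco2, both Hif1a-intact libraries were under 1 TPM, so the filter fixed their direction. With protein-coding genes only, 5 of the 56 targets were called higher and 1 lower. Those called higher included Crip2 and also Fas, which was not tested in the main fit. Both were under 1 TPM in each Hif1a-intact library, so the filter fixed their direction. Without either Hif1a-null library 0 were called. Without Hif1a-intact replicate 1 there were 4 higher and 2 lower, and without Hif1a-intact replicate 2 there were 2 higher and 3 lower.

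Targets in arrest included 7 tested genes, none of which passed the limma threshold. Gadd45a, a growth arrest and DNA damage gene, read 20.8 and 23.1 TPM in Hif1a-null libraries, against 11.4 and 17.4 TPM in Hif1a-intact libraries (limma, adjusted p = 0.235). Plk2, a polo-like kinase, read 1.004 and 1.16 TPM in Hif1a-null libraries, against 0.218 and 0.472 TPM in Hif1a-intact libraries (limma, adjusted p = 0.112). In 6 of the 7, Plk2 with its filter-fixed direction included, the groups did not overlap with Hif1a-null higher, against 22.7% of all tested genes. In 0 of the 7 they did so with Hif1a-null lower, against 32.3%. Among 5 feedback genes none passed either. Pml, of nuclear bodies that modify p53, read 23.4 and 19.2 TPM in Hif1a-null libraries, against 14.5 and 12.4 TPM in Hif1a-intact libraries (limma, adjusted p = 0.131). Dusp5, a phosphatase of ERK, read 1.48 and 1.35 TPM in Hif1a-null libraries, against 3.15 and 1.90 TPM in Hif1a-intact libraries (limma, adjusted p = 0.256).

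Targets in cell death had 11 tested members, of which 1 rose. In 6 of the 11 the groups did not overlap with Hif1a-null lower, against 32.3% of all tested genes. In 3 they did not overlap with Hif1a-null higher, against 22.7%. Steap3, a metalloreductase that also serves iron uptake in red cell precursors, read 6.27 and 6.23 TPM in Hif1a-null libraries, against 2.29 and 2.63 TPM in Hif1a-intact libraries (log2 fold change 1.07, limma adjusted p = 0.0245). The 13 erythroid markers summed to between 7631 and 8153 TPM in Hif1a-null libraries and between 164 and 231 TPM in Hif1a-intact libraries, and 12 of them rose. In 3 of the 13 the filter fixed the direction. The part of erythroid RNA in the Steap3 difference was not tested. The call of Steap3 was lost without Hif1a-null replicate 1 (limma, adjusted p = 0.335) or replicate 2 (limma, adjusted p = 0.379). Neither of the BH3-only death genes described passed. Pmaip1 (Noxa) read 4.49 and 4.33 TPM in Hif1a-null libraries, against 11.1 and 8.01 TPM in Hif1a-intact libraries (log2 fold change -0.95, limma adjusted p = 0.0700). It passed after quantile normalization (limma, adjusted p = 0.0468), and its log2 fold change was -1.16 without Hif1a-intact replicate 2. Bbc3 (Puma), named after its values were seen, read 1.56 and 1.60 TPM in Hif1a-null libraries, against 2.88 and 4.33 TPM in Hif1a-intact libraries (log2 fold change -0.82, limma adjusted p = 0.107). Without Hif1a-intact replicate 1 its log2 fold change was -1.05. Trp53i11 read 6.03 and 7.40 TPM in Hif1a-null libraries, against 12.4 and 11.7 TPM in Hif1a-intact libraries (limma, adjusted p = 0.0684).

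Among 8 repair targets 1 rose. Polh, the translesion polymerase eta, read 19.97 and 20.3 TPM in Hif1a-null libraries, against 10.2 and 9.81 TPM in Hif1a-intact libraries (log2 fold change 0.94, limma adjusted p = 0.0283). That call was lost without either Hif1a-null library (limma, adjusted p = 0.385 and 0.445) and without Hif1a-intact replicate 2 (limma, adjusted p = 0.0515). Xpc, which recognises DNA damage, read 35.7 and 35.8 TPM in Hif1a-null libraries, against 69.7 and 58.0 TPM in Hif1a-intact libraries (log2 fold change -0.81, limma adjusted p = 0.0590). It passed after median-ratio rescaling (limma, adjusted p = 0.0474), and its log2 fold change was -0.94 without Hif1a-intact replicate 2. Fancc, of the Fanconi anaemia complex, read 13.6 and 20.8 TPM in Hif1a-null libraries, against 9.10 and 11.6 TPM in Hif1a-intact libraries (limma, adjusted p = 0.235).

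Among 18 tested targets in metabolism and other roles, 1 fell and 0 rose. Ddit4, an inhibitor of mTORC1 that is also a known HIF-1 target, read 4.24 and 4.45 TPM in Hif1a-null libraries, against 9.97 and 13.1 TPM in Hif1a-intact libraries (log2 fold change -1.22, limma adjusted p = 0.0342). Its call held in 12 of 17 alternatives and was lost in 5, with adjusted p from 0.0187 to 0.352. The losses included the fits without Hif1a-null replicate 1 (limma, adjusted p = 0.335) and replicate 2 (limma, adjusted p = 0.352). Ephx1, an epoxide hydrolase, read 3.15 and 3.32 TPM in Hif1a-null libraries, against 1.55 and 1.07 TPM in Hif1a-intact libraries (limma, adjusted p = 0.0570). It passed after median-ratio rescaling (limma, adjusted p = 0.0433) and with protein-coding genes only (limma, adjusted p = 0.0437). Without Hif1a-intact replicate 1 its log2 fold change was 1.03. Crip2, a LIM domain protein, read 2.30 and 1.29 TPM in Hif1a-null libraries, against 0.0241 and 0.226 TPM in Hif1a-intact libraries (limma, adjusted p = 0.0571), and passed in 2 of its 13 alternatives.

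**Figure D4:**
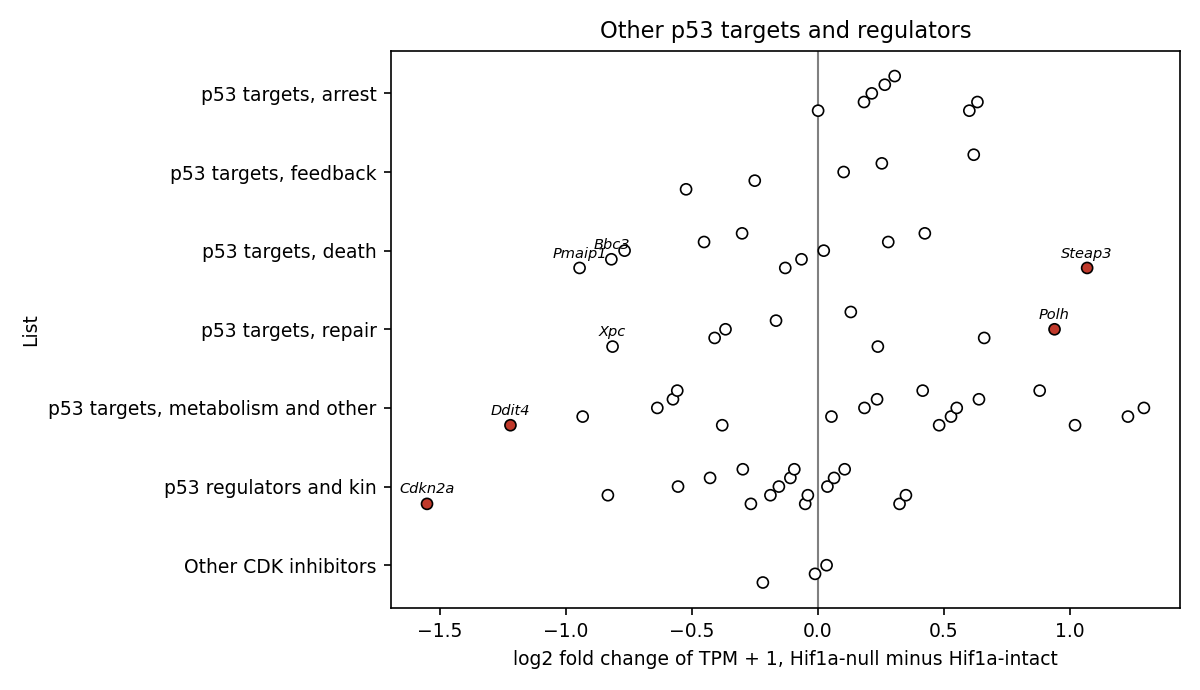
Log2 fold change of TPM + 1 (Hif1a-null minus Hif1a-intact, n = 2 each) of the other p53 targets and of p53 regulators that were tested, 1 row per list, with filled points for genes past the adjusted threshold of 0.05. Points lie on both sides of 0 in most lists, and the filled ones are Steap3, Polh, Ddit4 and Cdkn2a.

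Of 20 regulators and relatives of p53, 17 were tested and 1 passed, a share near the 7.27% of all tested genes called, so the count says nothing particular of the list. Cdkn2a encodes p16, an inhibitor of CDK4 and CDK6, and from another reading frame p19Arf, which blocks Mdm2. It read 2.04 and 1.37 TPM in Hif1a-null libraries, against 8.46 and 5.55 TPM in Hif1a-intact libraries. The groups did not overlap (log2 fold change -1.55, limma adjusted p = 0.0441), and a gene-level value does not separate the 2 products. The call was lost in 9 of its 16 alternatives, including each of the 4 fits with 1 library left out, with adjusted p up to 0.374. Bmi1, a Polycomb protein known to repress Cdkn2a, read 33.3 and 40.8 TPM in Hif1a-null libraries, against 61.6 and 48.5 TPM in Hif1a-intact libraries (limma, adjusted p = 0.201). Crebbp, an acetyltransferase and coactivator of p53, read 11.9 and 10.3 TPM in Hif1a-null libraries, against 13.8 and 16.9 TPM in Hif1a-intact libraries (limma, adjusted p = 0.236). The p53 relative Trp73 was listed at 0 in every library. Of the other inhibitors of cyclin-dependent kinases, Cdkn1b (p27) read 52.9 and 52.2 TPM in Hif1a-null libraries, against 51.7 and 50.8 TPM in Hif1a-intact libraries (limma, adjusted p = 0.901). For every 100 TPM of Cdkn1b there were 6.995 and 7.65 TPM of Cdkn1a in Hif1a-null libraries, against 40.9 and 54.3 TPM in Hif1a-intact libraries. Cdkn1c (p57) read 4.32 and 4.17 TPM in Hif1a-null libraries, between the 2.89 and 8.56 TPM of the Hif1a-intact libraries (limma, adjusted p = 0.831). Without Hif1a-intact replicate 1 its log2 fold change was -0.87, and without Hif1a-intact replicate 2 the sign turned, to 0.43.

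Markers of several cell types also differed between the groups, in both directions. In bulk RNA, fewer cells of a type and less RNA per cell cannot be told apart. Among 10 mast cell and basophil markers, 5 were tested, with Cpa3 lower and Il1rl1 higher. The filter fixed the direction of Il1rl1. The list summed to between 150 and 152 TPM in Hif1a-null libraries and between 419 and 646 TPM in Hif1a-intact libraries. Most of the difference between those sums was Cpa3, at 42.3 and 42.4 TPM in Hif1a-null and 526 and 289 TPM in Hif1a-intact libraries. Prss34, Tpsb2 and Cma1 were listed at 0 in all 4, and Fcer1a and Mcpt4 stayed under 1 TPM. Hdc, in contrast, read 83.2 and 86.3 TPM in Hif1a-null and 97.6 and 116 TPM in Hif1a-intact libraries. Ms4a2 and Mcpt8 were also above 1 TPM in every library. Among 14 monocyte and macrophage markers, 13 were tested. Adgre1 and Cd68 fell and Ccr2 rose, with sums between 295 and 300.01 TPM in Hif1a-null libraries and between 262 and 269 TPM in Hif1a-intact libraries. Among 12 stem and progenitor markers, Gata2 fell and Slamf1 and Hlf rose, and the filter fixed the direction of Slamf1. The sums were between 566 and 573 TPM in Hif1a-null libraries and between 704 and 751 TPM in Hif1a-intact libraries. Of 10 megakaryocyte markers, all tested, 7 rose, with sums of 176 to 196 TPM in Hif1a-null and 51.0 to 51.4 TPM in Hif1a-intact libraries. In 2 of the 10 the filter fixed the direction. Of 10 tested B-lineage markers 9 rose, with sums over all 12 of 237 to 241 TPM in Hif1a-null and 18.3 to 22.2 TPM in Hif1a-intact libraries. In 7 of those 10 the filter fixed the direction. Of 7 tested T and NK cell markers 6 rose, and in 4 of the 7 the filter fixed the direction. Their sums over all 10 overlapped, at 213 to 234 TPM in Hif1a-null and 193 to 301 TPM in Hif1a-intact libraries. Most of that sum was Nkg7, which read 122 and 144 TPM in Hif1a-null libraries, against 177 and 284 TPM in Hif1a-intact libraries. Of 8 tested stromal and endothelial markers, Sparc and Lepr rose and Pecam1 and Pdgfrb fell. Their sums over all 10 were 75.9 to 84.9 TPM in Hif1a-null and 55.1 to 63.2 TPM in Hif1a-intact libraries. Of the 14 granulocyte markers 8 rose and 0 fell. Of all tested genes 5.25% were called higher and 2.02% lower. With the genes of all these lists left out and the libraries rescaled, the log2 fold changes of Cdkn1a and Perp were -2.34 and -3.56 (limma, adjusted p = 0.0104 and 0.00633). That step does not remove the other RNA of those cells, and the part of cell composition in the 2 falls was not tested.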

How the data were processed

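RNA of c-Kit-selected marrow cells was measured in 4 libraries, 2 per group. The authors quantified expression with kallisto and named build mm10, per the submitters' processing notes; its version, the transcript set and the use of strand are not stated there. The deposited values are TPM, 1 for each gene in each library, a unit read from the column sums. Symbols, for 27458 of 28987 genes, and coordinates came from GENCODE vM21 (GRCm38, also called mm10) by Ensembl identifier.

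limma 3.58.1 in R 4.3.3 (trend and robust off, two-sided) was fitted to log2(TPM + 1) over all genes that reached 1 TPM in 2 or more libraries. P-values were adjusted by Benjamini-Hochberg over all of them, at a threshold of 0.05. A blastn 2.17.0 search of annotated transcripts for near-identical copies (at least 95% identity over 50% of the shorter transcript and 100 bases) found none for the 10 genes. The script was tested on simulated data with the same number of libraries. There, 10% of the genes given a log2 change of 1 were called, and 54% of those given a change of 2. For changes of 3 and 5 the shares were 84% and 90%, with 7 false calls among the unchanged genes. The simulation changed 200 of 11909 genes, whereas 866 were called in the data, so its call rates need not be those of the data. Figures used matplotlib 3.10.9 in Python 3.11.15.

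The members and lists were chosen with earlier results of these data known. Named were all members; in each list of other p53 targets and regulators, the genes past the threshold and the 2 of smallest unadjusted p below it; and the 5 genes nearest in pattern to Cdkn1a and to Perp. Bbc3 and the cell type markers named were chosen after their values were seen. The 17 alternatives changed the variance model, scaling, pseudocount, filter and gene set, summed copies, or left out a library; applying them to genes outside the 10 was added after seeing the data.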

Additional observations from a re-analysis of the deposited data

How the results depend on the processing

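The falls of Cdkn1a and Perp kept their direction in all 17 alternatives and passed in 15, which were all but those without 1 Hif1a-null library. Over all alternatives the log2 fold change ran from -2.62 to -1.72 for Cdkn1a and from -4.21 to -2.30 for Perp. With 1 library left out it ran from -2.56 to -2.19 for Cdkn1a, from -3.74 to -3.36 for Perp and from -0.93 to -0.51 for Sesn2, and from 0 to 3 genes of the 10 were called lower. Small changes turned sign without 1 library, with ranges of -0.092 to 0.34 for Mdm2, -0.059 to 0.36 for Aen, -0.17 to 0.41 for Trp53inp1 and -0.87 to 0.43 for Cdkn1c. Mdm2 was -0.0072 without Hif1a-null replicate 1. With 1 library left out, the genes called in the whole table ran from 0 to 731 higher and from 0 to 288 lower. Without Hif1a-null replicate 1, 11 genes of the whole table were called higher and 8 lower, and without Hif1a-null replicate 2 none (limma), with 958 at an unadjusted p under 0.05. Genes called lower numbered 138 with no filter and 112 at a mean of at least 5 TPM, against 241. Genes called higher numbered 399 with a pseudocount of 5 TPM and 231 at a mean of at least 5 TPM, against 625. Of the other p53 targets, 2 were called lower after median-ratio rescaling and 0 with a pseudocount of 5 TPM or no filter, against 1. Higher ones numbered 5 with protein-coding genes only, the filter-fixed Crip2 and Fas among them, and 1 at a mean of at least 5 TPM, against 2. With 1 library left out these counts ran from 0 to 3 lower and from 0 to 4 higher. The cause of these shifts was not tested. A fit without 1 library took each gene's own spread from the other group's pair alone, so its calls are not on a par with the rest. Read depth is unknown, so counting error could not be given. No paired analysis was possible because the labels carry no replicate numbers shared between the groups.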
